A study of Mus musculus with 4 samples.

Results

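Lyve1 Cd163 macrophages were a small set of 655 cells within the immune infiltrate of MC38 tumours, out of 44184 barcodes kept and 47276 deposited. They were chosen by raw UMI counts, a UMI being a molecular identifier that counts each captured RNA molecule once. A member had at least 1 UMI of Csf1r, none of Cd3d, Cd3e or Cd3g, and at least 1 UMI of at least 2 of the 4 genes Lyve1, Cd163, Cd209f and Cbr2. It did not have UMIs of both Mki67 and Top2a, the genes of a pair of cycling-cell proteins. Of the 25833 Csf1r-positive, Cd3-negative, non-cycling cells the members were 391 in WT library 1, 169 in WT library 2, 33 in KO library 1 and 62 in KO library 2.

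MC38 is a mouse colon adenocarcinoma line, and its tumours had been grown in wild-type (WT) mice or in Park2-/- mice (KO). Tumours had been digested with enzymes and CD45-positive cells held on magnetic beads, then captured with a droplet 3' kit, with 2 libraries per genotype. Tumour cells carried no named change, the deletion was in the mice, and the number, age and sex of the animals behind each library are not given in the sources used here.

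Macrophages that reside in a tissue before a tumour grows are often found near vessels and express scavenger and lectin receptors. Lyve1 is a hyaluronan receptor that lymphatic endothelium shares with such macrophages, and Cd163 takes up complexes of haemoglobin and haptoglobin. Cd209f is a C-type lectin of the mouse family related to human DC-SIGN, Cbr2 is a carbonyl reductase, and Csf1r is the receptor for the growth factor that keeps macrophages alive. Resident macrophages of many mouse organs also express the folate receptor gene Folr2, the mannose receptor gene Mrc1 and, in some organs, Timd4, which binds dying cells.

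The libraries held 94213071 and 112472244 UMIs in WT 1 and WT 2 and 130466357 and 104900918 in KO 1 and KO 2. Median depth over all kept cells was 9905.5 and 12133 UMIs in WT and 6052 and 8308 in KO, while the members' own medians were 11264, 11310, 10203 and 8114. Pairs of libraries shared between 22 and 51 barcodes.

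The label was checked on genes that the rule did not use. Mrc1 was detected in 98.98%, 98.2%, 100% and 96.8% of members of WT 1, WT 2, KO 1 and KO 2. Folr2 was detected in 89.5%, 94.1%, 87.9% and 85.5%. Mrc1 was also frequent in the other macrophages defined next, at 91.5%, 87.6%, 82.3% and 84.4%, so it separates the classes by level more than by detection. Among other macrophages, defined as cells with none of the 4 markers and UMIs of C1qa, C1qb and Adgre1, the share with Folr2 was 30.1%, 26.8%, 31.8% and 33.7% at medians of 12546, 13794, 10264 and 15033 UMIs. T cells, which should lack the gene, had a Folr2 UMI in 2.43%, 3.49%, 2.86% and 3.20% at medians between 2859 and 3246 UMIs. Folr2 thus marked most members, about as many in each library, and a minority of other macrophages. Timd4 was rare, with UMIs in 5 of 391, 6 of 169, 1 of 33 and 0 of 62 members, the last of which allows a share of up to 4.84% (3 counts of the total).

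Markers of other cells varied. Of 6 lymphatic endothelial genes, Prox1, Ccl21a, Mmrn1 and Reln had no UMI in any member, although Lyve1 is itself a lymphatic marker. The 6 genes summed to 182, 171, 266 and 197 counts per 1e6 UMIs (CPM) in members of WT 1, WT 2, KO 1 and KO 2, and to 246 to 387 CPM in other macrophages. The B cell genes Cd79a and Ms4a1 and the epithelial genes Krt8, Krt18, Krt19 and Cldn4 were also at 0 in all members. The summed level of 8 T cell genes, of which the rule sets Cd3d, Cd3e and Cd3g to 0, was 10.9 and 25.3 CPM in WT members and 38.9 and 36.0 CPM in KO members, against 2.66 to 16.9 CPM in other macrophages. NK cell genes summed to 1.16 and 2.53 CPM in WT and 19.5 and 11.5 CPM in KO members, and to 0.747 to 25.1 CPM in other macrophages. The summed level of 6 neutrophil genes was 46.5, 209, 58.4 and 60.5 CPM. The 8 macrophage genes summed to 15417 to 18553 CPM. The 7 monocyte genes had a higher sum than in other macrophages, at 1636 to 2365 CPM against 783 to 1559.7 CPM. Of these 7 genes only F13a1, which the resident list also holds, was called higher in members in the comparison given below. Vcan, Ly6c2 and Ccr2 were called lower there, so the higher sum does not describe the list as a whole. The 5 plasmacytoid dendritic cell genes were at 469.99 to 670.2 CPM against 236 to 465 CPM. Endothelial genes summed to 31.3, 8.60, 9.74 and 8.65 CPM and fibroblast genes to 22.7 to 39.6 CPM. The 6 B cell genes summed to 67.4, 144, 71.4 and 79.3 CPM against 10.3 to 54.6 CPM in other macrophages. The part of these levels in the results that follow was not tested, beyond the counts given without doubtful cells.

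The rule genes themselves are given as a description. Cbr2 was the most abundant of the 4, at 752 and 711 CPM in WT and 477 and 408 CPM in KO members. Lyve1 was at 290, 370, 55.2 and 251 CPM and Cd163 at 347, 204, 217 and 121 CPM in WT 1, WT 2, KO 1 and KO 2. Cd209f was at 198 and 311 CPM in WT and 120 and 111 CPM in KO. Csf1r, which all gated cells shared, ranged from 673 to 798 CPM. In the mm10 build the 4 markers lie apart: Lyve1 on chromosome 7 from 110850607 to 110863239, Cd163 on chromosome 6 from 124304656 to 124330527, Cd209f on chromosome 8 from 4102787 to 4105835 and Cbr2 on chromosome 11 from 120729489 to 120732114, per GENCODE M21.

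Most members met the rule through Cbr2 and 1 partner. Cd163 with Cbr2 alone made up 258 cells (39.4%), and Lyve1 with Cbr2 alone 179 cells (27.3%). All 4 markers were found together in 47 cells (7.18%), and 3 or 4 markers in 96, 51, 4 and 17 cells of WT 1, WT 2, KO 1 and KO 2. Just outside the threshold stood 3035 cells with exactly 1 marker, of which 89.2% had Cbr2 only. T cells met the same threshold of 2 markers in 0 of 206, 1 of 315, 0 of 1576 and 0 of 749 cells. Cbr2 alone was seen in 3.88% and 1.59% of WT T cells and in 0.635% and 0.401% of KO T cells.

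The share of members among Csf1r-positive cells was lower in both KO libraries than in both WT libraries. It was 7.02% (95% exact binomial interval 6.36 to 7.72) in WT 1, 2.94% (2.52 to 3.41) in WT 2, 0.351% (0.242 to 0.492) in KO 1 and 1.21% (0.931 to 1.55) in KO 2. The groups did not overlap, and WT 1 stood well above WT 2. Over the 2 libraries of each genotype the WT mean was 4.98% with an SD of 2.88 and the KO mean 0.782% with an SD of 0.609, a difference of -4.20 percentage points that shrank to -2.16 points without WT 1. An exact two-sided permutation test gave p = 0.3333, the smallest that 2 libraries against 2 allow, so the test cannot call a difference here. Intervals cover counting error only, and nothing in the labels says whether libraries came from separate animals, so the spread between them may be technical.

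The rule asks for detected UMIs, so depth can move the share. Cells with at least 3000 UMIs were thinned to that depth, and shallower cells were left out. The share was then 5.12%, 1.85%, 0.131% and 0.765% in WT 1, WT 2, KO 1 and KO 2. At 6000 UMIs it was 5.55%, 2.15%, 0.192% and 0.557%, and at 1000 UMIs 3.40%, 1.07%, 0.229% and 0.710%. Both KO libraries stayed below both WT libraries at each depth, but at 1000 UMIs the 95% intervals of WT 2 (0.703 to 1.55) and KO 2 (0.398 to 1.17) overlapped. The cells too shallow for 3000 UMIs included 40 of 391 and 12 of 169 WT members and 8 of 33 and 13 of 62 KO members. For 6000 UMIs they included 92 and 33 WT members and 12 and 29 KO members. A larger part of KO than of WT members was thus left out at 3000 and at 6000 UMIs. With 3 or 4 markers required, WT averaged 1.31% and KO 0.187%. Bead enrichment and digestion can set which cells enter a library, and their part in the share was not tested.

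**Figure D1:**
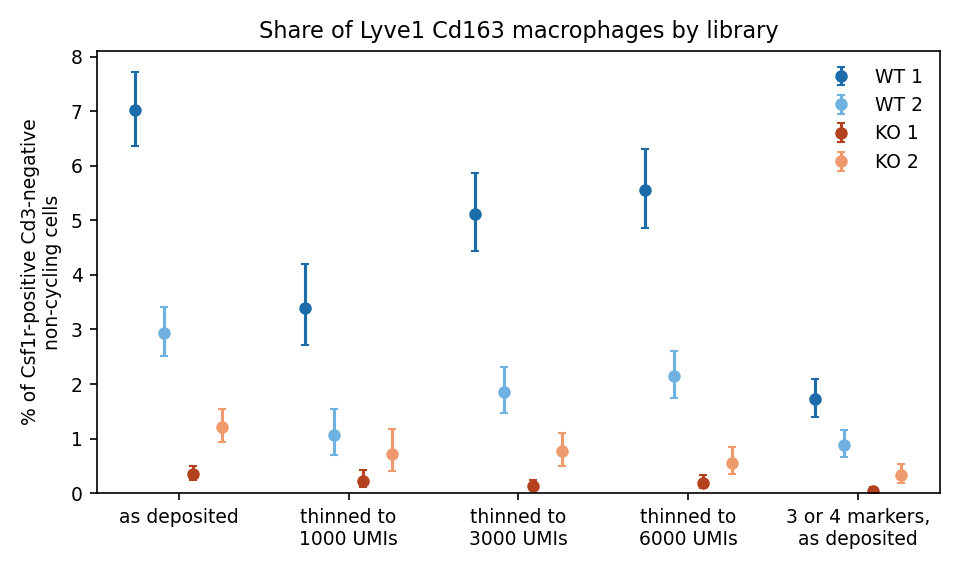
Share of Lyve1 Cd163 macrophages among Csf1r-positive, Cd3-negative, non-cycling cells (vertical axis, %) for each library. Settings are as deposited, after thinning to 1000, 3000 or 6000 UMIs per cell with shallower cells left out, and with 3 or 4 markers required. Points are libraries and bars are 95% exact binomial intervals. The points of both KO libraries lie below those of both WT libraries in each setting, and the bars of WT 2 and KO 2 overlap at 1000 UMIs.

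Levels of Folr2 and Gas6 were higher at each step in the number of markers in a cell. Folr2 in WT 1 went from 37.2 CPM in cells with 0 markers to 267 CPM with 1, 505 CPM with 2 and 973 CPM with 3 or 4. In KO 1 the same steps were 61.5, 281, 484 and 780 CPM, the last from only 4 cells. Gas6, which encodes a bridging ligand for the uptake of dying cells, went from 18.7 to 32.9 CPM at 0 markers to 867 to 951 CPM at 3 or 4. Cd209g, another C-type lectin of the Cd209 family, followed another course. It stayed between 3.03 and 28.7 CPM at 2 markers and reached 301 and 389 CPM in WT and 520 and 131 CPM in KO at 3 or 4. Ccr2, the receptor that brings monocytes out of bone marrow, went the other way in WT 1, from 644 to 412, 255 and 152 CPM. These genes were read in the same cells that the markers sorted, so the steps are a description, and the 6 plotted genes were chosen after their values had been seen. Cd209 genes are alike in sequence, and no source used here says how reads shared between them were counted.

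**Figure D2:**
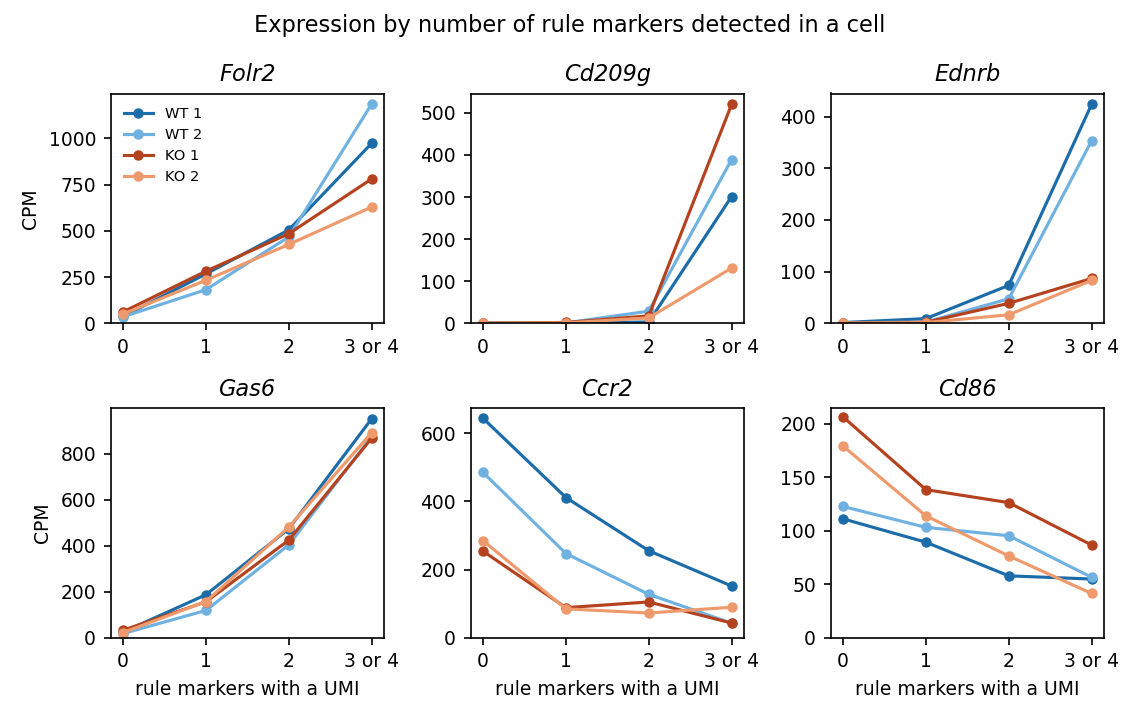
Level (CPM, vertical axes) of 6 genes by the number of the 4 rule markers detected in a cell (horizontal axes), with 1 line per library. Folr2 and Gas6 climb at each step, Cd209g and Ednrb climb mainly at 3 or 4 markers, and Ccr2 and Cd86 are lower at 3 or 4 markers than at 0.

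Members with different marker pairs were not alike. In WT, 57 and 38 members of libraries 1 and 2 had both Lyve1 and Cd209f, and 169 and 49 had Cd163 and Cbr2 alone. Cd209g was at 468 and 526 CPM in the Lyve1 and Cd209f cells and at 0.475 and 1.49 CPM in the Cd163 and Cbr2 cells. Ednrb, the endothelin B receptor, was at 513 and 416 CPM against 20.4 and 1.49 CPM. Vsig4, a complement receptor of resident macrophages, was at 187 and 103 CPM against 6.65 and 11.9 CPM. C6, a part of the membrane attack complex, was at 179 and 206 CPM against 2.38 and 2.97 CPM.

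Other genes were shared by both kinds of WT member or leaned the other way. Mrc1 was at 2661 and 2229 CPM in the Lyve1 and Cd209f cells and at 2728 and 1772 CPM in the Cd163 and Cbr2 cells. Fcrls, an Fc receptor-like gene also found in microglia, was at 373 and 327 CPM against 765 and 785 CPM. Cx3cr1, the fractalkine receptor, was at 68.0 and 68.6 CPM against 311 and 309 CPM. Timd4 was at 10.8 and 13.7 CPM in the Lyve1 and Cd209f cells and at 0 and 1.49 CPM in the others. The genes shown were chosen after their values had been seen. In KO 1 and KO 2 the Lyve1 and Cd209f cells numbered 1 and 9, or 3.03% and 14.5% of members, against 14.6% and 22.5% in WT.

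**Figure D3:**
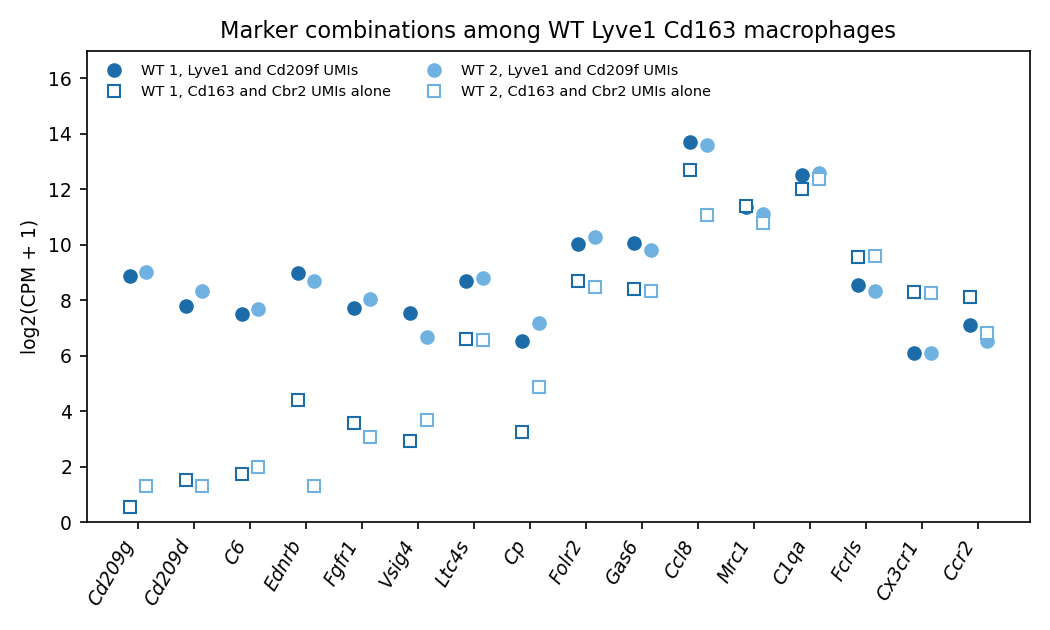
Level (log2(CPM + 1), vertical axis) of 16 genes in WT members with UMIs of Lyve1 and Cd209f (filled circles) and with UMIs of Cd163 and Cbr2 alone (open squares), 1 symbol per library. Cd209g, Cd209d, C6, Ednrb, Fgfr1 and Vsig4 separate the pairs, Mrc1 and C1qa do not, and Fcrls and Cx3cr1 lie higher in the Cd163 and Cbr2 cells.

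Members were next set beside other macrophages of the same library. The 4 markers also sort genes that go with them in the same cells, so nothing is read from the number of calls, and values are given as a description. In edgeR's quasi-likelihood test of summed UMIs with the library as a block, 31.4% of 11404 genes passed an adjusted p of 0.05, with 1670 higher and 1906 lower in members. Scaled to total counts instead, 3393 were higher and 1017 lower and the median of all genes stood at 0.23 (log2), so differences near that size have no settled direction. Without WT 1 the calls fell to 2286.

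The genes furthest above other macrophages included Cd209g, Ednrb, C6, Cd209d and Fgfr1. In WT these 5 were higher in the Lyve1 and Cd209f cells than in the Cd163 and Cbr2 cells. In KO 1 the 1 Lyve1 and Cd209f cell had 2 UMIs of Ednrb and 0 of Cd209g, C6, Cd209d and Fgfr1. Cd209g was at 73.4, 135, 55.2 and 37.5 CPM in members of WT 1, WT 2, KO 1 and KO 2 and between 0.0210 and 0.283 CPM in other macrophages, a log2 difference of 9.09 ± 0.23 (SE, n = 4 libraries). Ednrb was at 156, 138, 42.2 and 30.3 CPM against 0.189 to 1.35 CPM, a log2 difference of 7.12 ± 0.18. C6 differed by 6.47, Cd209d by 5.94, Cd55, which limits complement on the cell surface, by 5.33, and Fgfr1, a fibroblast growth factor receptor, by 5.04. Cp, the plasma ferroxidase ceruloplasmin, differed by 4.86 and Rcn3, a calcium-binding protein of the endoplasmic reticulum, by 4.69. Each of these was higher in members in 4 of 4 libraries. The 10 genes furthest below were Areg, Mmp8, Cxcl9, Ly6i, Slpi, Mcemp1, Tmeff1, Napsa, Tnip3 and Il7r. Areg, an EGF-family growth factor, was at 5.09, 4.04, 3.25 and 1.44 CPM against 36.9, 16.9, 41.0 and 39.9 CPM. Lrg1, a secreted leucine-rich glycoprotein, differed by 4.94, but its call was lost without KO 1 (4.97, adjusted p = 0.0526 in edgeR's quasi-likelihood test).

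Of 30 resident macrophage genes tested, 24 were higher in members and 2, Clec4n and Mgl2, were lower, with a median log2 difference of 2.77 against -0.000681 for all genes. Mrc1 was at a mean of 2077 ± 349 CPM in members and 498 ± 58.1 CPM in other macrophages (SD, n = 4 libraries). Stab1, a scavenger receptor of sinusoids and resident macrophages, was at 830 ± 71.8 CPM against 188 ± 29.0 CPM. Siglec1, a sialic acid receptor, was at 71.1 ± 18.1 CPM against 10.8 ± 1.67 CPM. Maf, a transcription factor of resident macrophages, was at 1003 ± 289 CPM against 241 ± 35.3 CPM. The chemokine gene Ccl8 was among the most abundant at 7513 ± 1283 CPM against 747 ± 676 CPM, yet did not pass the test. The list was drawn up from knowledge of such cells, so its direction is no independent evidence about the label.

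More iron and complement genes were higher than lower. Of 18 iron and haem genes 10 were higher and 4 lower, with the iron exporter gene Slc40a1 at 27.0 ± 19.0 CPM against 2.91 ± 1.41 CPM and the storage gene Fth1 among the lower. Of 15 complement genes 8 were higher, Cd55 among them, and 2 were lower. Of 19 scavenger and efferocytosis genes 8 were higher and 5, Axl, Mfge8, Itgb5, Msr1 and Clec7a, were lower. Of 22 type I interferon genes 11 were higher and 2 lower, with Oas2 at 26.6 ± 5.50 CPM against 5.57 ± 2.20 CPM. Without doubtful cells, which are those with at least 2 UMIs of another class's markers or a depth above the 99th percentile of their library, 6 of the 22 were higher and the list's median moved from 0.69 to 0.08. Doubtful members numbered 184 of 391, 81 of 169, 15 of 33 and 36 of 62 in WT 1, WT 2, KO 1 and KO 2. All were doubtful through markers, as 0 members passed the depth limit. Among other macrophages 396 of 1675, 686 of 2256, 2090 of 4365 and 1047 of 2121 were doubtful.

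Antigen presentation by MHC class II, glycolysis and inflammatory genes leaned downward. Of 13 class II genes 11 were lower and 1, the protease gene Lgmn, was higher, with a median of -1.68. H2-Ab1 was at 440, 966, 1850 and 1029 CPM in members of WT 1, WT 2, KO 1 and KO 2 and at 1975, 2852, 3124 and 2997 CPM in other macrophages. H2-Ab1 was thus lower in members of every library, and H2-DMb1, which loads peptides, was at 147 ± 38.2 CPM against 374 ± 70.8 CPM. Of 20 hypoxia and glycolysis genes 18 were lower and none higher, with the glucose transporter gene Slc2a1 at 96.2 ± 5.73 CPM against 191 ± 39.5 CPM. Of 14 inflammatory genes 9 were lower, with Cxcl2, a chemokine for neutrophils, at 1134 ± 477 CPM against 2771 ± 913 CPM. Of 20 cholesterol synthesis genes 15 were lower and none higher. Arg1, Lgals3 and Thbs1 were lower as well, at 2855.5 ± 823, 2153 ± 521 and 218 ± 73.9 CPM against 5198 ± 988, 4330 ± 805 and 692 ± 149.9 CPM. The medians of these 4 lists stayed below 0 with total counts scaling, at -1.45 for class II, -0.52 for hypoxia and glycolysis, -1.09 for inflammatory and -0.38 for cholesterol genes.

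**Figure D4:**
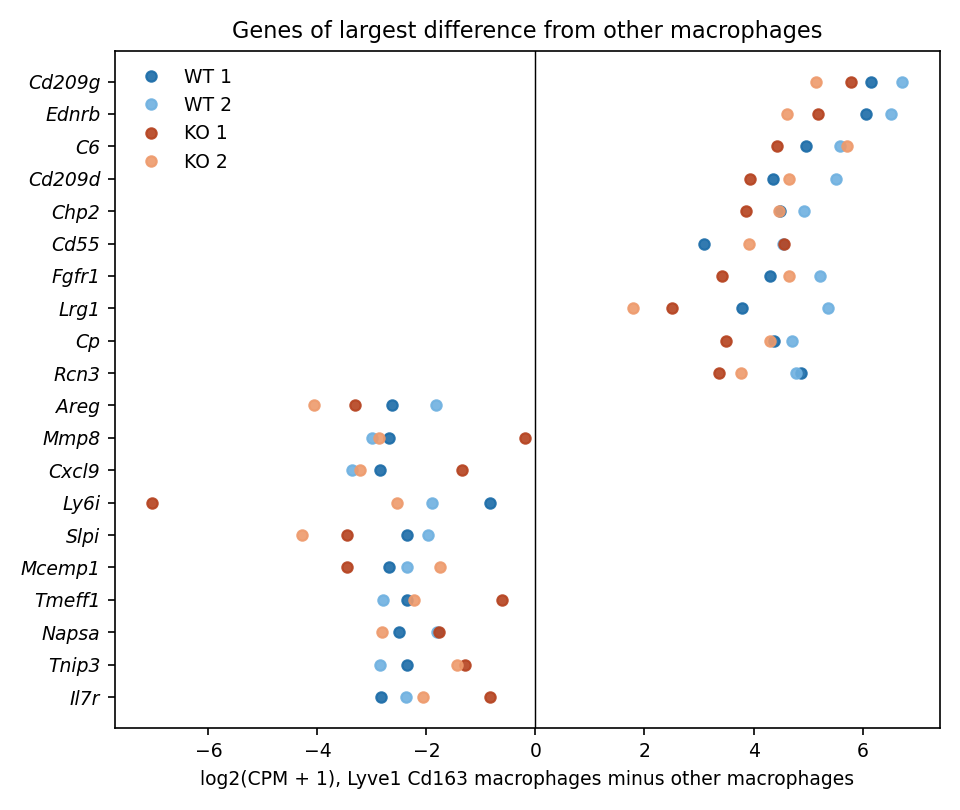
Difference in log2(CPM + 1) between members and other macrophages of the same library (horizontal axis) for the 10 genes of largest difference in each direction, 1 point per library. Cd209g, Ednrb, C6 and Cd209d lie furthest to the right, and the 10 lower genes lie left of 0 in all 4 libraries, with Mmp8 of KO 1 close to it.

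Members were also set beside cells with UMIs of Fcrls and Cx3cr1 and fewer than 2 markers, 1012, 1227, 281 and 191 in number. Of the members themselves, 36.8%, 36.1%, 9.09% and 19.4% also had both Fcrls and Cx3cr1. In the same test 21.7% of 10105 genes differed, 1072 higher and 1118 lower in members, and 1715 higher and 658 lower with total counts. Without WT 1 or WT 2 the calls fell to 975 and 1184. Cd209g and Cd209d differed by log2 7.37 and 6.80, and Retnla, a gene of alternative activation, by 3.60. Retnla was seen in 48, 8, 1 and 4 members, with 24.3%, 55.0%, 100% and 68.75% of its UMIs in 1 cell. Itgax, the integrin CD11c, was lower in members by a log2 difference of -2.01, at 14.1, 16.2, 22.7 and 18.7 CPM against 60.5, 60.3, 32.9 and 62.3 CPM. Of 12 class II genes 10 were lower with a median of -1.15, and H2-Eb1 was at 316, 783, 1220.2 and 794 CPM against 1148, 1745, 2179 and 2193 CPM. The call of H2-Eb1 was lost without KO 2 (-1.41, adjusted p = 0.0793 in edgeR's quasi-likelihood test). C1qa, C1qb and Apoe did not pass the test: C1qa was at 5474 ± 590.2 CPM in members and 5268 ± 1156.5 CPM in the Fcrls Cx3cr1 cells.

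The Chil3 Ear2 cells, 157, 33, 45 and 45 in number, were the last class compared. Against them 22.8% of 6948 genes differed, 760 higher and 827 lower in members, and 1093 higher and 582 lower with total counts. Without WT 1 or WT 2 the calls fell to 904 and 1013. Gas6 was at 586, 543, 458 and 566 CPM in members against 11.6, 7.92, 2.91 and 21.4 CPM. Cd209g, C6, Cd209d, Chp2 and Cd55 had no UMI in the Chil3 Ear2 cells of any library. In the other direction Car4, Fst, Ace and Ereg, the last an EGF-family growth factor, had at most 3.25 CPM in any library's members. Il1b, the interleukin-1 beta gene, was at 453 ± 154 CPM in members against 2675 ± 718 CPM. Of 28 resident macrophage genes 24 were higher, and the 3 C1q genes were higher as well, with C1qa at 5474 ± 590.2 CPM against 1050.1 ± 196 CPM.

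The genotypes were then compared within the members, on summed UMIs of 4319236 and 1977792 in WT and 308151 and 693818 in KO. The KO sums were small, which limits what could be called. In edgeR's quasi-likelihood test 97 of 8372 genes, or 1.16%, passed an adjusted p of 0.05, with 68 (0.812%) higher and 29 (0.346%) lower in KO. The count was 33 without KO 1 and 63 without KO 2, of which 27 and 36 were among the 97. It was 55 without doubtful cells and 42 with DESeq2. Other macrophages, with many more UMIs, gave 1227 of 11677 genes, or 10.5%, with 698 (5.98%) higher and 529 (4.53%) lower.

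Interferon gamma response genes were higher in KO members. Of 18 tested 8 rose and none fell, with a median log2 change of 1.30 against -0.00496 for all genes, and 7 of 17 rose without doubtful cells. Gbp4, a guanylate-binding protein, was at 14.6 and 6.57 CPM in WT and 123 and 82.2 CPM in KO, a log2 change of 3.11 ± 0.29 (SE). The KO values lay several-fold above both WT values, and the call held when each library was left out. In KO 1 and KO 2 Gbp4 was seen in 12 and 17 members, with 39.5% and 33.3% of its UMIs in 1 cell. T cells had Gbp4 at 156 and 86.5 CPM in WT and 101 and 105 CPM in KO, and the part of T cell RNA was not tested. Il18bp, a decoy receptor for interleukin 18, was at 35.9 and 40.4 CPM against 104 and 80.7 CPM, and was not called without KO 1 (1.13, adjusted p = 0.0701 in edgeR's quasi-likelihood test). Iigp1, a GTPase of defence against vacuolar parasites, was at 155 and 82.9 CPM against 435 and 422 CPM. The transcription factor gene Irf1 was at 65.5 and 37.4 CPM in WT against 146 and 114 CPM in KO. The calls of Iigp1 and Irf1 were lost without KO 1 or without KO 2, at log2 changes of 1.14 to 1.92 and adjusted p of 0.148 to 0.323 in edgeR's quasi-likelihood test. Cxcl10 and Gbp2 were at 47.5 and 124 CPM and at 90.1 and 42.5 CPM in WT against 334 and 156 CPM and 321 and 124 CPM in KO, and did not pass.

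MHC class I genes went the same way. Of 17 genes of class I presentation 8 rose and none fell, with a median log2 change of 0.71, and 6 rose without doubtful cells. Psmb8, an immunoproteasome subunit, was at 240 and 296 CPM in WT and 490 and 497 CPM in KO, a log2 change of 0.93 ± 0.16 (SE) called with each library left out. H2-K1, a classical class I chain, was at 1294 and 1559.8 CPM against 2424 and 2117 CPM, with no overlap. Its call was lost without WT 1, KO 1 or KO 2 (0.55 to 0.83, adjusted p = 0.285, 0.416 and 0.0574 in edgeR's quasi-likelihood test). The nonclassical genes H2-Q7 and H2-Q6 were at 34.5 and 46.5 CPM and at 8.33 and 11.1 CPM in WT, against 305 and 169 CPM and 51.9 and 51.9 CPM in KO. Their log2 changes were 2.56 ± 0.27 and 2.52 ± 0.33, and these near-identical paralogs may share counts. Both also had high levels in T cells, H2-Q7 at 1108 and 832 CPM in WT and 1396.5 and 1194 CPM in KO T cells.

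MHC class II was less uniform. Of 11 genes 1, the protease gene Ctss, rose, and the median log2 change was 0.69. Ctss was at 2488 and 2487 CPM in WT and 4001 and 3726 CPM in KO, and its call was lost without WT 1, KO 1 or KO 2 (0.62 to 0.75, adjusted p = 0.108 to 0.387 in edgeR's quasi-likelihood test) and without doubtful cells. Cd74, the invariant chain, was at 1264 and 2717 CPM against 4251 and 3364 CPM and did not pass. WT 1 was lowest for Cd74 and WT 2 lay nearer to KO 2.

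Of 12 inflammatory genes tested 3, Nos2, Cxcl2 and Cxcl1, were called higher in KO and 0 lower. Inhba, Csta2 and Clec7a, which are not on that list, were called higher too, and some of these calls rested on a few cells. Cxcl1 was seen in 13 and 12 members of KO 1 and KO 2, with 26.4% and 66.7% of its UMIs in 1 cell. Nos2, the inducible nitric oxide synthase, was at 6.02 and 9.10 CPM in WT and 81.1 and 70.6 CPM in KO, a log2 change of 3.43 ± 0.31 (SE). In KO 1 and KO 2 it was seen in 7 and 8 cells, with 52.0% and 57.1% of its UMIs in 1 cell, and it was not called without doubtful cells (2.38, adjusted p = 0.102 in edgeR's quasi-likelihood test). Inhba, the activin A subunit, was at 10.7 and 5.06 CPM against 243 and 153 CPM, with 69.3% and 56.6% of KO UMIs in 1 cell, and was likewise not called without doubtful cells (4.42, adjusted p = 0.534 in the same edgeR test). T cells had Inhba at 6.13 and 10.7 CPM in WT and 67.0 and 43.9 CPM in KO, and the part of RNA from other cells was not tested. Csta2, a stefin of cysteine protease inhibition with close paralogs, had the largest log2 change of the called genes, 6.21 ± 0.44, from 2 and 4 KO cells, 1 of which held 75.0% and 93.0% of its UMIs. Cxcl2 was spread more widely, at 728 and 749 CPM against 1697 and 1364 CPM, and Clec7a, a beta-glucan receptor, was at 114 and 107 CPM against 295 and 209 CPM. Both were called with each library left out.

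Other called genes had varied roles. Upp1, a uridine phosphorylase, was at 9.26 and 5.56 CPM in WT and 45.4 and 41.8 CPM in KO and was called with each library left out. Ly6c2, a monocyte surface gene with close paralogs, was at 2.32 and 2.02 CPM against 22.7 and 28.8 CPM, from 7 and 20 UMIs in 4 and 8 KO cells. T cells had Ly6c2 at 271 and 206 CPM in WT and 756 and 675 CPM in KO, and the part of T cell RNA was not tested. The call of Ly6c2 in edgeR's quasi-likelihood test was lost without WT 2 or KO 2 (3.55 and 3.40). Tagap1 was lost without KO 2 (1.88) and Atp6v0d2, a proton pump subunit, without KO 1 (1.79), both in the same edgeR test. In KO members Tagap1 rested on 6 and 29 UMIs. T cells had Tagap1 at 4.90 and 10.7 CPM in WT and 38.8 and 68.05 CPM in KO, and the part of T cell RNA was not tested. Klf2, a transcription factor that restrains inflammation in myeloid cells, was at 246 and 257 CPM against 376 and 481 CPM and was lost without KO 2 (0.65, adjusted p = 0.192 in that test).

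Resident macrophage genes did not rise in KO, and 5 of 28 fell: Ednrb, Vsig4, Pltp, Ltc4s and Fcgrt, with a list median of -0.29. Ednrb was at 156 and 138 CPM in WT and 42.2 and 30.3 CPM in KO, a log2 change of -2.05 ± 0.25 (SE). The KO levels rested on 13 and 21 UMIs in 4 and 13 cells, with 61.5% and 19.0% of them in 1 cell. Among members with any Lyve1 UMI, 204 and 103 in WT and 11 and 32 in KO, Ednrb was at 303 and 243 CPM against 100 and 41.6 CPM. These KO levels rested on 10 and 16 UMIs. Among members without a Lyve1 UMI, Ednrb was at 26.6 and 4.58 CPM in WT against 14.4 and 16.2 CPM in KO, and the genotypes overlapped. Among Lyve1 and Cd209f cells it was at 513 and 416 CPM in WT. In KO 1 it was at 871 CPM there, from 2 UMIs of 1 cell, and in KO 2 at 196 CPM. Ednrb was called with each library left out but not without doubtful cells (-1.18, adjusted p = 0.0895 in edgeR's quasi-likelihood test). Without doubtful cells 2 of 27 resident genes fell. Vsig4 was at 44.5 and 44.0 CPM in WT, at 9.74 CPM in KO 1 from 3 UMIs of 1 cell and at 0 in KO 2, and was lost without KO 2 (-2.11, adjusted p = 0.117 in that test). The part of the share of Lyve1 and Cd209f cells, given above, in these results was not tested.

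Ltc4s, which makes leukotriene C4, was at 194 and 266 CPM in WT and 55.2 and 107 CPM in KO and was lost without KO 1 (-1.07, adjusted p = 0.163 in edgeR's quasi-likelihood test). Pltp, a phospholipid transfer protein, was at 620 and 808 CPM against 406 and 399 CPM and was lost without WT 2, KO 1 or KO 2 (adjusted p = 0.209 to 0.233 in that test). Most abundant resident genes did not pass: Mrc1 was at 2559.7 and 1955 CPM against 1736 and 2055 CPM, Ccl8 at 8143 and 5694 CPM against 8619 and 7596 CPM, and Pf4, a platelet and macrophage chemokine, at 4314 and 5609.8 CPM against 5072 and 3719 CPM. For these 3 genes the WT and KO values overlapped. Fcrls, named after its values were seen, was at 645 and 565 CPM against 289 and 281 CPM.

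Among other genes that fell, Rcn3 was at 175 and 115 CPM in WT and 29.2 and 36.0 CPM in KO, a log2 change of -2.07 ± 0.26 (SE), and Lrg1 at 51.9 and 60.7 CPM against 6.49 and 2.88 CPM, a change of -3.73 ± 0.47. In KO 1 and KO 2 Rcn3 rested on 9 and 25 UMIs and Lrg1 on 2 and 2 UMIs. Both were called with each library left out and without doubtful cells. Marco, a scavenger receptor for bacteria, was at 16.7 and 27.3 CPM against 6.49 and 1.44 CPM from 2 and 1 UMIs, and was lost without WT 2, KO 1 or KO 2 (adjusted p = 0.170 to 0.615 in edgeR's quasi-likelihood test). Rnaset2b, a ribonuclease with the paralog Rnaset2a, was at 71.3 and 56.1 CPM against 19.5 and 1.44 CPM and was lost without KO 2 (-1.66, adjusted p = 0.107 in that test). It was low in KO T cells too, at 38.5 and 3.97 CPM against 125 and 105 CPM in WT. Rnaset2b lies on chromosome 17 from 6970634 to 7011299.

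Cholesterol genes leaned lower, with 4 of 19 called lower, among them Hmgcs1, Fdps and Sqle, none higher and a median of -0.81. Hmgcs1, which makes HMG-CoA early in the pathway, was at 77.3 and 62.2 CPM in WT and 26.0 and 25.9 CPM in KO. Its call was lost without KO 1 or KO 2 (-1.40 and -1.37, adjusted p = 0.0604 and 0.160 in edgeR's quasi-likelihood test). Fdps was lost without WT 2, KO 1 or KO 2 and Sqle without any 1 of the 4 libraries. Type I interferon genes did not follow the interferon gamma list: none of 19 rose and 2, Rsad2 and Ifit1, fell. Ifit1 was at 35.9 and 36.9 CPM against 12.98 and 12.97 CPM, with 47.1% and 41.1% of its WT UMIs in 1 cell, and was lost without any 1 library, while Rsad2 was lost without WT 1, KO 1 or KO 2 (adjusted p = 0.0522, 0.0604 and 0.577 in edgeR's quasi-likelihood test). Without doubtful cells none of 10 such genes changed.

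In the hypoxia and glycolysis list, none of 19 genes passed in either direction, and the mitophagy list gave none of 26. Gapdh was at 2597 and 2673 CPM in WT and 2668 and 2596 CPM in KO, and the autophagy gene Gabarap at 881 and 928 CPM against 925 and 949.8 CPM. Median log2 changes of these lists were 0.08 and -0.05. A gene that missed the threshold is not shown to be equal, since the KO sums were small. Of the other lists 1 or 2 genes passed at most in each direction, except for macrophage transcription factors, with 4 higher and 1 lower of 27, and inflammatory genes, with 3 higher of 12. At 1.16% of all genes, 0 called of 19 or of 26 is near the background.

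**Figure D5:**
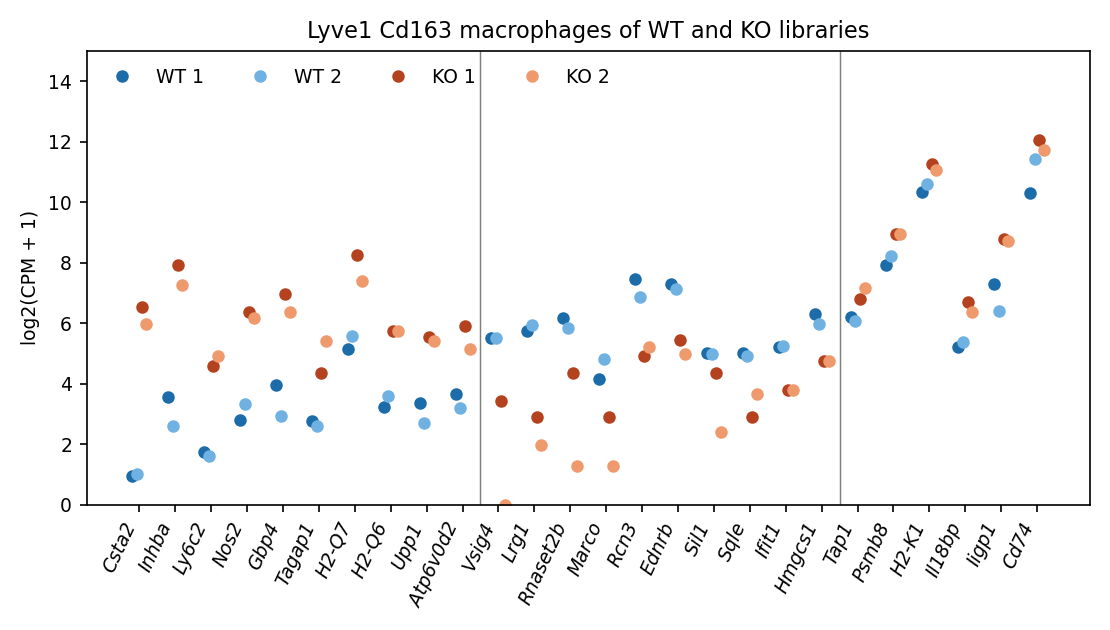
Level (log2(CPM + 1), vertical axis) of 26 genes in members of each library, split by vertical lines into the 10 largest changes upward, the 10 largest downward and 6 genes of antigen presentation and interferon response. KO points lie above both WT points for the first 10 genes and below them for the next 10, with Vsig4 of KO 2 at 0, and among the last 6 the WT values of Cd74 are spread most widely.

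The change between genotypes was also set against that in other macrophages by an interaction term. In edgeR's quasi-likelihood test 260 of 11404 genes, or 2.28%, differed, with 65 (0.570%) higher and 195 (1.71%) lower in members than in other macrophages. The count fell to 83 without WT 1, to 132 without WT 2 and to 66 without doubtful cells. Interferon gamma genes had a median log2 change of 1.24 in members and 1.77 in other macrophages, and 6 of 21 were lower by the interaction, with none higher. Il18bp went from 35.9 and 40.4 to 104 and 80.7 CPM in members and from 10.5 and 14.0 to 123 and 73.9 CPM in other macrophages, an interaction of -1.75 ± 0.21 (SE, log2). Class I genes had medians of 0.67 in members and 0.83 in other macrophages, and 4 of 17, H2-K1, H2-D1, B2m and Tapbp, were lower by the interaction. H2-K1 began higher in WT members, at 1294 and 1559.8 CPM against 801 and 1018 CPM, while KO levels were 2424 and 2117 CPM in members and 2529.5 and 2061 CPM in other macrophages.

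Ccl8, on both the chemokine and the resident list, was at 8143 and 5694 CPM in WT members and 8619 and 7596 CPM in KO members, while in other macrophages it went from 195 and 155 CPM to 1494 and 1143 CPM. The interaction was -2.72 ± 0.09 (SE, log2) and was called with each library left out. Of 23 chemokines 9 were lower by the interaction and none higher, as were 8 of 28 lysosome genes with none higher. Of 30 resident genes 9, among them Pf4, Folr2, Fcna and Selenop, were lower by the interaction, and 1 was higher. Folr2 was at 615 and 679 CPM in WT members and 506 and 468 CPM in KO members, against 64.9 and 55.1 CPM and 89.8 and 77.6 CPM in other macrophages. Type I interferon genes had a median change of -0.39 in members and 0.51 in other macrophages, with 9 of 22 lower by the interaction and none without doubtful cells.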

How the data were processed

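Each library was a deposited matrix of UMI counts per gene and barcode. The authors' counts came from Cell Ranger 5.0.0 according to the file headers, while the submitters' processing notes name Cell Ranger 5.0.1, Seurat 3.15 and the mm10 build. Barcodes were kept from 200 detected genes upward and up to a mitochondrial share of 20%, members were found by the rule stated in the report, and raw UMIs were summed per library and class. Levels are CPM of those sums. The edgeR 4.0.16 quasi-likelihood test (limma 3.58.1, R 4.3.3, Python 3.11.15) was run with filterByExpr, TMM scaling and Benjamini-Hochberg adjustment at 0.05 over all genes tested. Comparisons of classes had the library as a block, and the difference of the KO effect was an interaction term. In the comparison of genotypes p-values rest on the spread between 2 libraries per genotype, which may be technical. In comparisons of classes they rest on the spread of the within-library difference over the libraries, and in the interaction on its spread between libraries of a genotype.

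Named genes were the 10 of largest change in each direction among those past the threshold, with at least 20 CPM in the higher group and groups or libraries that did not overlap, plus, per list and comparison, up to 4 members that passed (smallest p) and up to 2 that did not (highest CPM). The rule, the members and the lists were chosen with earlier results of these data known. No doublet caller was run, and doubtful cells were left out as an alternative. The other alternatives were DESeq2 1.42.0, other scalings, no filter on low counts, a 10% mitochondrial limit, cells thinned to 3000 UMIs (and to 1000 and 6000 for shares), stricter marker rules, a replicate block and each library left out. The tests were tried on simulated counts first. The level of the targeted gene and a few other genes are not reported here.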

Additional observations from a re-analysis of the deposited data

Results flagged for a closer look

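For 20 genes the change between KO and WT differed between members and other macrophages by the interaction term of edgeR's quasi-likelihood test, and these were the 10 largest in each direction under the rule for named genes. Values are log2 changes in members minus those in other macrophages. The higher ones were Csta2 at 5.97, Ly6c2 at 1.96, Fbxo32 at 1.94, Hells at 1.79, Hopx at 1.70, Slco2b1 at 1.64, Bhlhe41 at 1.64, Inhba at 1.47, Eef1akmt4 at 1.46 and Dkc1 at 1.45. The lower ones were Marco at -6.37, Pecam1 at -3.37, Serpinb1a at -2.88, Npy at -2.86, Ccl8 at -2.72, Cfb at -2.67, Cxcl3 at -2.25, Rsad2 at -2.11, Slpi at -1.95 and Sil1 at -1.89.

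Calls of Csta2, Bhlhe41, Inhba, Marco, Ccl8, Cfb and Cxcl3 were kept with each library left out in turn. Bhlhe41, a clock-related repressor found in resident macrophages, was at 30.6 and 33.9 CPM in WT members and 45.4 and 50.4 CPM in KO members, and at 42.3 and 34.8 CPM against 18.8 and 18.1 CPM in other macrophages. Cfb, complement factor B, was at 26.4 and 37.9 CPM against 19.5 and 14.4 CPM in members and at 7.10 and 9.64 CPM against 30.0 and 23.5 CPM in other macrophages. Marco, Pecam1 and Serpinb1a each rested on 2 and 1 UMIs in KO members, Slpi on 3 and 2, Hopx on 3 and 20 and Ly6c2 on 7 and 20 UMIs. Csta2 rested on 2 and 4 KO cells. In KO 1 Fbxo32 had 10 UMIs and Hells 9, each in 2 cells, with 90.0% and 88.9% in 1 cell. Of the WT UMIs of Npy 86.0% and 93.3% lay in 1 cell, as did 70.3% of those of Cxcl3 in WT 2. Inhba had 69.3% and 56.6% of its KO UMIs in 1 cell.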

How the results depend on the processing

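The KO sums limit the comparison of genotypes: the 97 calls became 151 with no filter on low counts, 55 without doubtful cells, 5 with cells thinned to 3000 UMIs, 42 with DESeq2, 7 with 3 of 4 markers, 1 with Lyve1 and Cd209f required, and 33 to 120 with a library left out. The replicate block gave 172, but same-numbered libraries deviated together little (r = 0.0253 over 8379 genes), so the numbers are not taken to pair the samples. The comparison with other macrophages gave 1606 calls thinned and 2286 to 3594 with a library left out. That with Fcrls Cx3cr1 cells gave 1333 without doubtful cells, 981 thinned and 975 to 2398 with a library left out. That with Chil3 Ear2 cells gave 1013, 473 and 904 to 1765, and the interaction 66, 43 and 83 to 250. Scaling to total counts, added after seeing the data, gave 98 higher and 144 lower in the interaction. The difference in share ran from -2.16 to -6.24 points with a library left out.

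Some log2 changes reversed, and the cause was not tested. Between genotypes these were Ctss thinned (-0.14), with 3 of 4 markers (-0.20) and with Lyve1 and Cd209f (-1.21), Tap1 thinned (-0.17) and Irf1 with 3 of 4 markers (-0.02). With Lyve1 and Cd209f, where KO 1 had 1 cell, they were Cxcl2 (-1.92), Fos (-0.16), Fth1 (-0.92), H2-K1 (-0.29), Iigp1 (-0.51), Il18bp (-1.62), Irf1 (-1.02), Lgals3 (-1.33), Plaur (-0.32), Psmb8 (-0.23) and Tap1 (-0.74). Against other macrophages it was Cdk1 thinned (-0.36). In the interaction they were Csta2 (-0.41), H2-DMb1 (-0.10), Mmp13 (-1.23), Nos2 (-8.01) and Vegfa (-0.86) thinned, Gdf15 (0.01), Hells (-0.57), Hspa1b (-0.03) and Npy (0.46) without doubtful cells, Il10 without KO 1 (-0.83, against 3.82 without KO 2), and Retnla without KO 2 (-1.22, against 1.85 without KO 1) and with the 10% mitochondrial limit (-0.69).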
